A study of Homo sapiens with 12 samples.

Results

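The transcriptional response of control-hairpin U251 cells to interferon gamma (IFNγ) was followed over all genes, in 6 of the 12 libraries of the series. U251 is an established human glioblastoma line, and the cells analysed here stably carried a control short hairpin RNA (shCTRL), so untreated and treated cells alike expressed a hairpin. Messenger RNA was sequenced from 3 untreated shCTRL samples and 3 shCTRL samples that had received IFNγ for 24 h, all at passages 14 to 18. The labels give no IFNγ dose. The other 6 libraries came from cells with a hairpin against the RNA called INCA1 in the study (shINCA1), 3 untreated and 3 with IFNγ for 24 h, and they enter below only to share the estimate of spread and for 1 comparison of responses. The labels name 1 line for each hairpin, and no unmodified U251 cells were analysed here. Whether the 3 samples of a group were separate cultures is not stated, so p-values cover only the spread between the sequenced samples, and that spread may be technical.

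The 6 shCTRL libraries held 46525032 to 65663147 estimated counts each, with 16790 to 17216 genes above 0, and replicates correlated at 0.983 to 0.987 over genes. Levels are given as CPM, the counts per 1000000 of the scaled library total, which is not divided by gene length, so levels of different genes are not compared with each other. The glial and mesenchymal markers VIM, NES, SOX2, SOX9, CD44, TNC and EGFR were well above 0 in all 6 libraries, with VIM at 2580.0, 2548 and 2466 CPM without and 2531, 2631 and 2533 CPM with IFNγ. GFAP, the classical astrocyte filament gene, was low at 1.76, 1.29 and 1.73 CPM without and 1.33, 0.925 and 0.714 CPM with IFNγ. The list of line markers held 10 genes, of which 2 rose, 3 fell and 5 did not pass the test. Levels of S100B and CHI3L1, also on that list, are not shown here. The highest log2 change of the list, 2.09, did not pass. Of 21 immune cell markers, 11 were at 0 in all 6 libraries and 3 were tested, none of which passed the test. The summed level of the 21 was 12.99 to 14.5 CPM in untreated and 14.0 to 15.3 CPM in treated libraries, most of it from CD68.

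IFNγ is the cytokine of activated T cells and natural killer cells. It binds the receptor chains IFNGR1 and IFNGR2, whose kinases JAK1 and JAK2 phosphorylate STAT proteins. A STAT dimer then binds the gamma-activated site (GAS). The transcription factor IRF1, itself induced by this route, binds the interferon-stimulated response element (ISRE), as does the complex that holds STAT2 and IRF9. The genes behind these elements cover antigen presentation, chemokines that draw T cells, intracellular defence, and the feedback that ends the signal.

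The promoters of several genes that rose together are shown first, because both elements can be read in them. The 250 bases before the transcription start are given 5′ to 3′ on the strand of the gene, from RefSeq on GRCh38.p14. Capitals mark matches to the GAS letters TTCNNNGAA or to the ISRE letters, GAAA followed by NN and a second GAAA, on either strand. On the reverse strand an ISRE reads TTTC, NN, TTTC. Positions count back from the start, and the build of the sequences differs from that of the counts.
IRF1, chr5:132490774-132491023, minus strand: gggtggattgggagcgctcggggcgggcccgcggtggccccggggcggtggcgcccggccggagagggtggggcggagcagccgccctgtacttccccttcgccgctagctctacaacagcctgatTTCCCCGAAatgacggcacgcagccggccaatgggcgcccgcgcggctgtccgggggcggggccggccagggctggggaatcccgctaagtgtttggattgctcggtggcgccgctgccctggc
CXCL10, chr4:76023498-76023747, minus strand: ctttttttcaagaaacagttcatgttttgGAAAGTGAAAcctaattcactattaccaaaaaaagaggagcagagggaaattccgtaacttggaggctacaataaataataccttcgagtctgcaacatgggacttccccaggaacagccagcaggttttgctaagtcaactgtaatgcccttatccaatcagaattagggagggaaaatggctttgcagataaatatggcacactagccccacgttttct
GBP1, chr1:89065209-89065458, minus strand: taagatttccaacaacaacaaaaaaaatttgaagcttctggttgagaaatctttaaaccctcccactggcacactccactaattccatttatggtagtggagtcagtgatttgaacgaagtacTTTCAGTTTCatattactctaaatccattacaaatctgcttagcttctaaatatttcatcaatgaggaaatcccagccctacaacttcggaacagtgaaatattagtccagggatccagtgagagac
TAP1, chr6:32853705-32853954, minus strand: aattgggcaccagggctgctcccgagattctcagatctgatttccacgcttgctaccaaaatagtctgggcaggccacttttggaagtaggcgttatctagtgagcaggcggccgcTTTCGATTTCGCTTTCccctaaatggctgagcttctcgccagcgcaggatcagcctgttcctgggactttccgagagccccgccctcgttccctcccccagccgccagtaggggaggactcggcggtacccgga
CD274, chr9:5450292-5450541, plus strand: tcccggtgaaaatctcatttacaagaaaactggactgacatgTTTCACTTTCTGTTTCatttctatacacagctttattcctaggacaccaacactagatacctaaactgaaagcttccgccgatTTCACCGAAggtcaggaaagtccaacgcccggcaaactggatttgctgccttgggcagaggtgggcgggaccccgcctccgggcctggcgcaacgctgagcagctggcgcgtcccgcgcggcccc
PARP14, chr3:122680589-122680838, plus strand: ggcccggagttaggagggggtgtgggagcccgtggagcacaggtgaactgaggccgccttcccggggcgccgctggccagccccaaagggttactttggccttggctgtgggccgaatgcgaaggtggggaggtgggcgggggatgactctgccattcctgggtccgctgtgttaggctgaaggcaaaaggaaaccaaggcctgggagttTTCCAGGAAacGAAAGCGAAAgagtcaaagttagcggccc
IRF1 had 1 GAS match, at -124 to -116, and no ISRE match in this window. CXCL10 and GBP1 had 1 ISRE match each, at -221 to -212 and -127 to -118. TAP1 had 2 overlapping ISRE matches between -134 and -119. CD274 had 2 overlapping ISRE matches between -208 and -193 and a GAS match at -125 to -117. PARP14 had a GAS match at -40 to -32 and an ISRE match at -29 to -20, the closest to the start of the 6 genes shown.

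Matches to these letters were counted in the promoters of every class of response, and their share was higher in classes with larger rises. A RefSeq promoter of 300 bases, 250 before and 50 after the start, could be assigned to 12066 tested genes. An ISRE match was present in 35.3% of the 51 promoters of genes raised at least 16-fold, in 34.2% of 76 raised 4 to 16-fold and in 17.8% of 118 raised 2 to 4-fold. It was present in 5.53% of 976 promoters of genes raised less than 2-fold, in 2.19% of 9931 of genes that did not pass the test and in 1.62% of 862 lowered less than 2-fold. Over all tested genes the share was 2.91%, and over all 27305 promoters of the table it was 3.65%. GAS matches followed the same order with smaller differences: 19.6%, 17.1%, 10.2% and 8.20% in the 4 raised classes, 6.14% in genes that did not pass, 6.42% over all tested genes and 7.88% over the whole table. Among the 52 promoters of genes lowered at least 2-fold, 1 held an ISRE match and 2 a GAS match. Of the 51 promoters of the largest class, 23 held either match in this window. These shares were not tested, a match does not show that a factor bound there, and matches of both motifs may overlap.

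**Figure D1:**
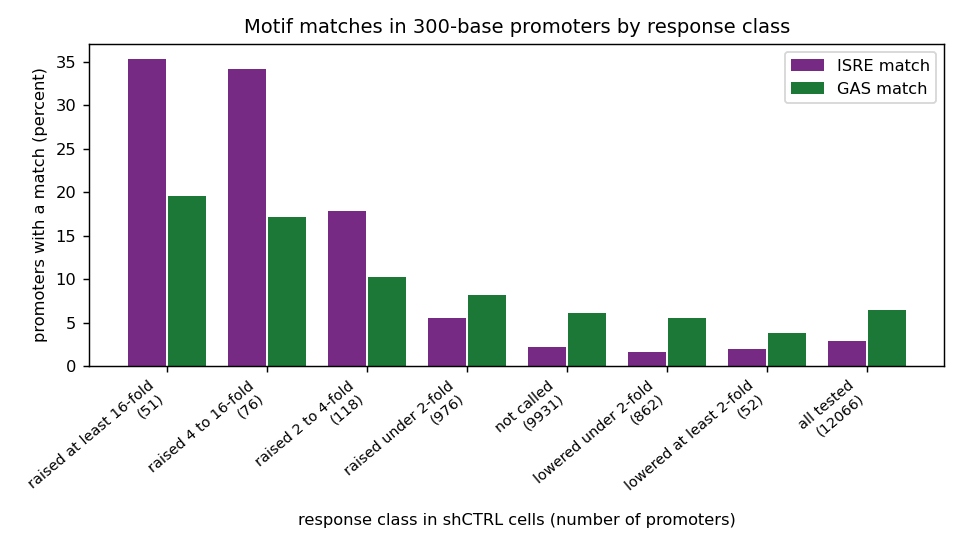
Share of 300-base RefSeq promoters (y axis, percent) with at least 1 match to the ISRE or the GAS letters on either strand, by class of response in shCTRL cells (x axis, with the number of promoters in each class). ISRE shares run from 35.3% in genes raised at least 16-fold by the fitted change to 2.19% in genes that did not pass the test. GAS shares run from 19.6% to 6.14%.

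Of 15769 genes tested, 2716 (17.2%) passed an adjusted p of 0.05, 1532 (9.72%) raised and 1184 (7.51%) lowered by IFNγ. With upper-quartile scaling in place of TMM, which moves the median change of all tested genes by -0.0498, the split was 1201 raised and 1970 lowered. Rises were larger than falls. At least 2-fold fitted changes were found in 352 raised genes (2.23%) and 78 lowered genes (0.495%). By the same fit 53 genes rose by 6 or more on the log2 scale and 5 fell by as much. Where a group is at 0 in all its libraries, the fitted change is no measure of size. Most calls were small: 927 raised and 871 lowered genes changed by less than 0.5 on the log2 scale, and the median change over all tested genes was -0.012. Libraries of both groups did not overlap for 2608 genes (16.5%) that were higher and 2660 (16.9%) that were lower after IFNγ. In 43 raised genes all 3 untreated libraries were at 0, and in 8 lowered genes all 3 treated libraries were at 0. The genes raised at least 2-fold took 0.507%, 0.513% and 0.513% of the counts of the untreated libraries and 2.43%, 2.42% and 2.36% of the treated ones. The genes lowered at least 2-fold took 0.0384% to 0.0423% of the untreated and 0.0152% to 0.0162% of the treated libraries. Log2 changes below are followed by approximate standard errors, worked back from the statistic of the test. Adjusted p-values come from edgeR's quasi-likelihood test with Benjamini-Hochberg adjustment over all 15769 genes.

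**Figure D2:**
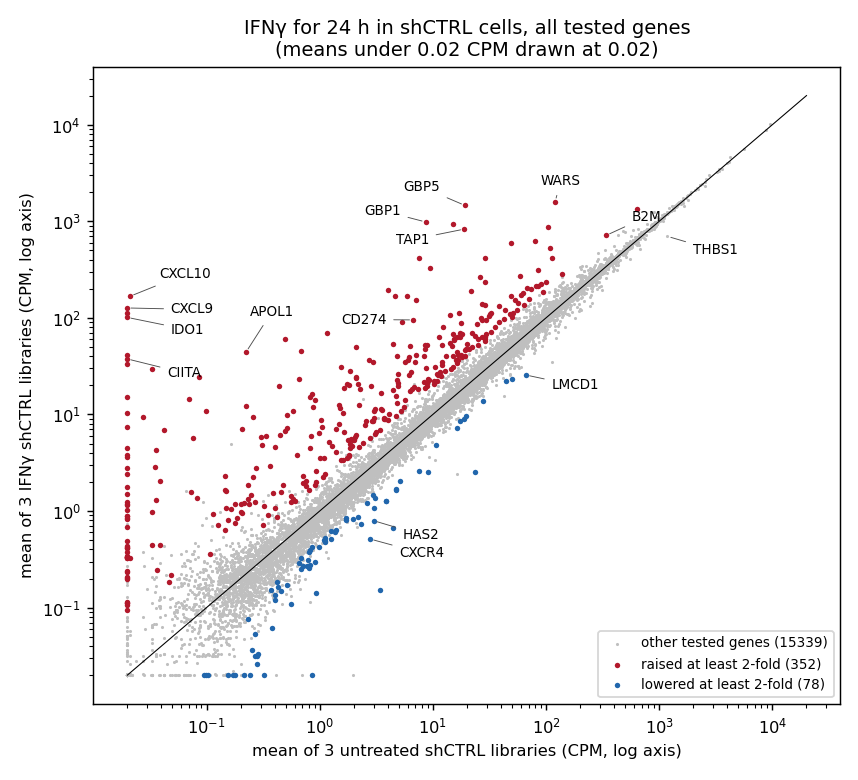
Mean CPM of the 3 untreated shCTRL libraries (x axis) against the mean of the 3 IFNγ shCTRL libraries (y axis), both on log axes, for the 15769 tested genes, with means under 0.02 CPM drawn at 0.02. The 352 genes raised at least 2-fold reach from genes at 0 without IFNγ (left edge) to WARS, while the 78 genes lowered at least 2-fold lie mostly under 10 CPM.

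Of the receptor chains, kinases and STATs, 14 genes were tested, 6 rose and 0 fell, with a median log2 change of 0.18. JAK2, the kinase bound to IFNGR2, went from 13.7, 17.5 and 14.5 CPM in untreated libraries to 58.00, 59.9 and 57.01 CPM (log2 change 1.94 ± 0.08, adjusted p = 6.03e-09). STAT2, a part of the ISRE complex, went from 25.7, 25.1 and 22.7 to 96.5, 83.5 and 81.4 CPM (log2 change 1.83 ± 0.07, adjusted p = 4.43e-09). In both genes every treated library lay above every untreated one. The type I interferon receptor genes IFNAR2 and IFNAR1 rose by 0.38 ± 0.05 and 0.23 ± 0.04 on the log2 scale. STAT3, at 139, 226 and 231 CPM untreated and 393, 383 and 241 CPM treated, was called with 0.77 ± 0.23 (adjusted p = 0.0423). That call was lost when any single library other than shCTRL IFNγ replicate 3 or untreated shINCA1 replicate 2 was left out, with adjusted p-values of 0.051 to 0.14. The genes of the IFNγ receptor and its other kinase did not pass the test. IFNGR1 stood at 63.7, 61.8 and 61.3 CPM without and 60.1, 57.5 and 57.7 CPM with IFNγ (log2 change -0.09 ± 0.05, adjusted p = 0.277). IFNGR2 changed by -0.00 ± 0.05, JAK1 by 0.02 ± 0.03 and TYK2, a kinase of the type I receptor, by -0.03 ± 0.07.

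The genes that restrain JAK-STAT signalling gave 5 raised and 2 lowered of 16 tested, with a median log2 change of 0.03. SOCS1, an inhibitor of JAK1 and JAK2 induced by IFNγ, stood at 0.182, 0.255 and 0.342 CPM in untreated and 9.94, 8.76 and 9.39 CPM in treated libraries (log2 change 5.17 ± 0.22, adjusted p = 6.03e-09). SOCS3, the inhibitor that acts at receptors of the interleukin 6 family, went from 25.5, 23.8 and 25.3 to 62.7, 59.6 and 59.8 CPM (log2 change 1.29 ± 0.06, adjusted p = 1.09e-08). USP18, which removes ISG15 and blocks the type I receptor, rose by 1.00 ± 0.07, CISH by 0.90 ± 0.09 and the phosphatase gene PTPN2 by 0.29 ± 0.05. SOCS2, better known for growth hormone signalling, fell from 41.8, 42.3 and 39.98 to 23.8, 22.98 and 24.6 CPM (log2 change -0.80 ± 0.06, adjusted p = 1.24e-06), with no overlap of the groups. SOCS5 was also lower, with a log2 change of -0.23 ± 0.05. The PIAS genes, PTPN1, PTPN11, SOCS4, SOCS6 and SOCS7 did not pass the test.

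Of 19 tested transcription regulators of the interferon response, 16 rose and 0 fell, with a median log2 change of 2.37. IRF1 stood at 15.5, 15.6 and 14.01 CPM without and 938, 931 and 941 CPM with IFNγ (log2 change 5.96 ± 0.06, adjusted p = 1.69e-14). CIITA, the coactivator that switches on MHC class II genes, was at 0 in all 3 untreated libraries and at 39.3, 37.2 and 36.1 CPM after IFNγ, at least 678-fold higher. NLRC5, which plays that role for MHC class I genes, went from 7.51, 6.68 and 7.07 to 161, 151 and 151 CPM (log2 change 4.44 ± 0.09, adjusted p = 5.58e-12). All 3 were separated without overlap. BATF2 was at or near 0 untreated (0.0828, 0 and 0 CPM) and at 9.504, 9.69 and 8.74 CPM after IFNγ. ETV7, an ETS family repressor, went from 0, 0.212 and 0 to 16.2, 13.6 and 13.9 CPM. IRF9, the DNA-binding part of the ISRE complex, rose by 2.57 ± 0.10, IRF2 by 1.59 ± 0.10 and BATF3 by 1.57 ± 0.12 on the log2 scale. The nuclear body genes PML, SP100, SP110 and SP140L rose by 2.37 ± 0.08, 1.70 ± 0.05, 2.71 ± 0.06 and 1.87 ± 0.05. IRF3, which acts downstream of nucleic acid sensors, rose by 0.37 ± 0.06 only. IRF7 was listed at 0 in all 6 libraries.

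The guanylate-binding proteins, large GTPases that attack vacuoles of intracellular pathogens, formed one of the families with the largest changes: 6 of 7 tested genes of the list rose, with a median log2 change of 6.25, or 5.12 with genes from 0 set to their lower bound. GBP5 stood at 19.4, 19.5 and 18.5 CPM in untreated and 1466, 1469 and 1446 CPM in treated libraries (log2 change 6.25 ± 0.04, adjusted p = 2.10e-16). GBP1 went from 8.05, 8.296 and 9.496 to 997, 995 and 958 CPM (log2 change 6.83 ± 0.11, adjusted p = 1.09e-12). GBP4 was at 0 in every untreated library and at 110.4, 119.6 and 109 CPM after IFNγ, at least 2057-fold higher. The treated libraries of a gene differed by little from each other here. GBP2 rose by 5.12 ± 0.04 and GBP3 by 4.82 ± 0.06. GBP6 was at 0 untreated and reached 0.602, 0.956 and 0.498 CPM, at least 12.6-fold higher. IRGQ, a related GTPase gene, stood at 47.3, 48.4 and 43.2 CPM untreated and 42.9, 39.6 and 43.5 CPM treated and did not pass. The GBP genes are close paralogs, and no source used here says how the counting split their shared reads.

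All 5 tested apolipoprotein L genes rose, with a median of 5.94. APOL1, known as the trypanosome lytic factor, went from 0.265, 0.191 and 0.216 to 43.7, 46.3 and 43.1 CPM (log2 change 7.60 ± 0.10, adjusted p = 8.94e-12). APOL3 rose from 0.414, 0.509 and 0.558 to 62.7, 58.2 and 59.2 CPM (log2 change 6.93 ± 0.21, adjusted p = 3.43e-10). APOL6 went from 7.69, 7.702 and 7.34 to 413, 427 and 419 CPM (log2 change 5.79 ± 0.06, adjusted p = 3.32e-14). APOL1 and APOL3 were under 1 CPM in each untreated library. APOL4 rose by 5.94 ± 0.21 and APOL2 by 3.87 ± 0.05.

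The 3 ligands of CXCR3, a chemokine receptor of activated T cells, were absent or nearly absent without IFNγ. CXCL9 was at 0 in all 3 untreated libraries and at 130.5, 128 and 121 CPM after IFNγ, at least 2288-fold higher. CXCL11 was at 0 and then at 29.6, 34.8 and 35.7 CPM, at least 610.2-fold higher. CXCL10 had counts in 1 untreated library (0, 0.0637 and 0 CPM) and stood at 165, 163 and 176 CPM after IFNγ. Chemokines outside this family showed no common direction: 3 of 9 tested rose and 1 fell, with a median of -0.35. CCL2, a monocyte attractant, went from 4.18, 3.35 and 4.68 to 10.5, 9.61 and 10.5 CPM (log2 change 1.32 ± 0.13, adjusted p = 1.11e-05), CX3CL1 rose by 1.04 ± 0.07 and CXCL16 by 0.70 ± 0.06. The neutrophil attractant CXCL8 fell from 1.46, 1.51 and 1.47 to 0.83, 0.956 and 0.548 CPM (log2 change -0.92 ± 0.19, adjusted p = 0.00425), and CXCL2 and CXCL3 had values of -0.74 and -0.65 that did not pass. CCL5, CXCL1 and CXCL12 were listed at 0 in all 6 libraries.

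Of 7 tested tryptophan genes 4 rose and 0 fell, with a median of 0.29. A degrading enzyme and the enzyme that charges tRNA with tryptophan were among those that rose. IDO1, the first enzyme of tryptophan breakdown, was at 0 in all untreated libraries and at 108, 97.3 and 97.8 CPM after IFNγ, at least 1819.8-fold higher. WARS, the cytosolic tryptophanyl-tRNA synthetase, stood at 119.9, 122 and 119 CPM and then at 1626, 1620.1 and 1552 CPM (log2 change 3.73 ± 0.02, adjusted p = 2.10e-16), the largest rise in CPM among the called genes. KMO, a later enzyme of the kynurenine pathway, went from 0.298, 0.149 and 0 to 1.100, 1.29 and 0.814 CPM (log2 change 2.80 ± 0.58, adjusted p = 0.00547). The mitochondrial synthetase gene WARS2 rose by 0.29 ± 0.04. TDO2, which catalyses the same step as IDO1, and KYNU and AFMID did not pass the test, with log2 changes of -0.19, -0.06 and -0.06.

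Every tested gene of the MHC class I chains rose, 7 of 7 with a median of 1.07. HLA-E, the nonclassical chain read by natural killer cells, went from 79.2, 80.9 and 81.9 to 607, 626 and 622 CPM (log2 change 2.94 ± 0.04, adjusted p = 3.19e-13). HLA-B went from 6.41, 7.11 and 5.67 to 26.9, 28.1 and 27.3 CPM (log2 change 2.10 ± 0.09, adjusted p = 4.43e-09). B2M, the shared light chain, was high before treatment, at 330.1, 352 and 342 CPM, and stood at 718, 720.2 and 709 CPM after it (log2 change 1.07 ± 0.03, adjusted p = 3.71e-11). HLA-C rose by 1.45 ± 0.14 and HLA-F by 0.69 ± 0.08. The HLA genes are near-identical and polymorphic, so the split of reads among them is uncertain.

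Of 12 genes of peptide trimming, transport and loading, 9 rose, with a median of 1.36. TAP1, one chain of the peptide transporter, went from 19.4, 18.5 and 18.7 to 823, 837 and 826 CPM (log2 change 5.45 ± 0.04, adjusted p = 2.10e-16). Its partner TAP2 stood at 114, 109.6 and 102 CPM before treatment and at 529, 509 and 545 CPM after it (log2 change 2.28 ± 0.05, adjusted p = 2.59e-11). TAPBP, which encodes tapasin, rose by 1.42 ± 0.05, and the trimming peptidase genes ERAP1, ERAP2 and LAP3 rose by 1.78 ± 0.04, 2.24 ± 0.05 and 1.30 ± 0.03. The general chaperone genes CALR and CANX, with 0.04 and 0.03, did not pass.

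Proteasome genes split by subunit. All 6 genes of the immunoproteasome list rose, with a median of 1.73, while 10 of 32 constitutive subunit genes rose and none fell, with a median of 0.07. PSMB9, a catalytic immunosubunit, was under 1 CPM untreated (0.862, 0.594 and 0.576 CPM) and at 44.9, 45.5 and 44.5 CPM after IFNγ (log2 change 6.03 ± 0.17, adjusted p = 1.25e-10). PSMB8, another catalytic immunosubunit, went from 17.01, 17.7 and 16.2 to 109.5, 111 and 113 CPM (log2 change 2.71 ± 0.04, adjusted p = 8.66e-13). PSMB10 rose by 1.93 ± 0.08, the activator genes PSME1 and PSME2 by 1.32 ± 0.04 and 1.53 ± 0.05, and the assembly factor gene POMP by 0.25 ± 0.04. Among the constitutive genes the rise was at most 0.51, in PSMA3, followed by the other alpha ring genes PSMA5 (0.48), PSMA6 (0.43), PSMA2 (0.40) and PSMA4 (0.38). These alpha subunits are shared by both kinds of proteasome.

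MHC class II genes rose from very low levels. Of 13 tested genes of presentation by class II, 11 rose, with a median of 2.34. CD74, the invariant chain, was at 0 in all untreated libraries and at 4.07, 3.95 and 3.31 CPM after IFNγ, at least 68.1-fold higher. HLA-DRA went from 0, 0.0637 and 0.054 to 2.05, 2.45 and 1.595 CPM (log2 change 5.69 ± 0.76, adjusted p = 2.11e-04). HLA-DPA1 was already present at 1.04, 1.06 and 0.665 CPM and stood at 2.34, 3.18 and 2.29 CPM after IFNγ (log2 change 1.498 ± 0.47, adjusted p = 0.05). The treated levels of both chains were low. HLA-DRB1 rose by 3.55 ± 0.77, HLA-DPB1 by 2.68 ± 0.41 and HLA-DMB by 2.25 ± 0.46. The HLA-DPA1 call was lost when any single library other than untreated shINCA1 replicates 1 and 3 was left out (log2 change 1.31 to 1.59, adjusted p 0.0578 to 0.179), and that of HLA-DOB (2.48 ± 0.63) without untreated shCTRL replicate 1 or 2 (adjusted p 0.0623 to 0.0726). HLA-DMA had 0.81 ± 0.35 and did not pass (adjusted p = 0.152). The thiol reductase gene IFI30 went from 17.5, 17.3 and 17.9 to 92.2, 88.1 and 87.6 CPM, and the protease gene CTSS from 0.298, 0.276 and 0.342 to 6.599, 5.28 and 5.78 CPM. The factors that bind class II promoters together with CIITA changed little: RFX5 rose by 0.28 ± 0.05 and RFXAP did not pass. The leukocyte markers CD4, MS4A1, AIF1 and TYROBP were at 0 in all 6 libraries, and PTPRC held 3 counts in 1 untreated library and 0 in the treated ones.

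Genes of intracellular antiviral defence, many of which type I interferon also induces, rose in most lists. Of 8 tested IFIT and IFITM genes 7 rose, with a median of 2.35. IFIT3 went from 4.39, 3.99 and 5.395 to 169, 172 and 164 CPM (log2 change 5.19 ± 0.11, adjusted p = 1.02e-11), IFIT2 rose by 3.90 ± 0.07, IFIT1 by 2.61 ± 0.10 and IFITM1 by 2.10 ± 0.14, while IFITM2 rose by 0.25 ± 0.05 only. IFITM10 was the member that fell, with -0.30 ± 0.07 (not called without IFNγ shCTRL replicate 3, adjusted p = 0.061). The oligoadenylate synthetase list, enzymes that answer to double-stranded RNA, gave 4 raised and 1 lowered of 5 tested. OAS2 went from 0, 0 and 0.108 to 5.27, 3.82 and 3.72 CPM and OASL from 0, 0.106 and 0 to 3.05, 2.79 and 2.66 CPM, both near 0 without IFNγ. OAS3 was present before treatment and went from 15.5, 16.6 and 13.8 to 61.8, 58.7 and 59.7 CPM, and OAS1 rose by 3.02 ± 0.28.

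Of 18 restriction factors, proteins that block a step of viral replication, 16 rose, with a median of 1.62. SAMD9L went from 3.496, 4.54 and 4.12 to 204, 192 and 186 CPM (log2 change 5.59 ± 0.19, adjusted p = 1.17e-09), BST2, which encodes tetherin, from 1.31, 1.42 and 1.89 to 30.3, 30.4 and 31.3 CPM, and SAMHD1, a dNTP hydrolase, from 58.5, 61.1 and 58.4 to 270.0, 271 and 274 CPM. MX1, a standard marker of type I interferon, stood at 1.77, 1.804 and 1.33 CPM untreated and 1.99, 2.85 and 1.96 CPM treated and did not pass (log2 change 0.47 ± 0.29, adjusted p = 0.33), while its neighbour MX2 rose from 0, 0 and 0.054 to 0.892, 1.03 and 0.731 CPM. ADAR, which edits adenosine in double-stranded RNA, went from 619, 635 and 646 to 1340.0, 1343 and 1317 CPM (log2 change 1.07 ± 0.02, adjusted p = 3.02e-12). Of 10 genes that sense or signal foreign RNA or DNA 9 rose, with a median of 2.20. Among them IFIH1, which encodes MDA5, rose by 3.59 ± 0.07, DDX58, which encodes RIG-I, by 2.51 ± 0.10, TLR3 by 3.06 ± 0.09 and IFI16 by 1.90 ± 0.04. AIM2, a cytosolic DNA sensor, was at 0 untreated and at 1.45, 1.58 and 1.495 CPM after IFNγ, at least 27.5-fold higher.

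The ISG15 conjugation genes gave 5 raised of 6 tested. UBE2L6, its conjugating enzyme, went from 5.88, 5.11 and 5.13 to 89.6, 91.9 and 87.3 CPM (log2 change 4.06 ± 0.12, adjusted p = 1.91e-10), the activating enzyme gene UBA7 rose by 4.25 ± 0.23 and ISG15 itself by 1.79 ± 0.10. HERC5, the main ligase, stood at 27.1, 28.8 and 30.3 CPM and 27.3, 25.02 and 27.4 CPM and did not pass, while its relative HERC6 rose by 1.72 ± 0.15. Of 12 ADP-ribosyltransferase genes and DTX3L, 8 rose and 1 fell. PARP14 went from 47.3, 48.4 and 51.3 to 606, 608 and 589 CPM (log2 change 3.62 ± 0.05, adjusted p = 1.62e-13), PARP9 rose by 3.12 ± 0.07 and its partner DTX3L by 3.03 ± 0.04, whereas PARP1, the DNA repair enzyme, did not pass (0.05). Of 11 TRIM ligases 8 rose and 1 fell. TRIM22 went from 1.89, 2.31 and 2.14 to 53.7, 49.9 and 46.6 CPM (log2 change 4.57 ± 0.21, adjusted p = 1.79e-08) and TRIM21, the cytosolic antibody receptor, from 6.93, 6.32 and 5.67 to 53.2, 51.1 and 48.9 CPM (log2 change 3.02 ± 0.07, adjusted p = 1.72e-11). The small interferon-induced genes XAF1 and IFI27 were at 0 in the untreated libraries and at 4.13, 5.05 and 4.24 and 1.31, 0.941 and 0.814 CPM in the treated ones.

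Cell death genes gave 13 raised and 0 lowered of 21 tested, with a median of 0.69. CASP1, the inflammatory caspase, went from 1.38, 1.08 and 0.647 to 8.96, 9.17 and 8.34 CPM (log2 change 3.09 ± 0.26, adjusted p = 3.01e-06). The death receptor gene FAS went from 5.29, 6.05 and 5.65 to 35.01, 34.1 and 36.3 CPM (log2 change 2.64 ± 0.09, adjusted p = 6.77e-10), and TNFSF10, which encodes TRAIL, from 4.84, 5.58 and 4.26 to 26.4, 24.9 and 26.6 CPM (log2 change 2.41 ± 0.12, adjusted p = 2.84e-08). The groups did not overlap in these 3 genes. The initiator caspase gene CASP8 rose by 0.73 ± 0.05, the pore-forming MLKL by 1.08 ± 0.04 and BAK1 by 1.13 ± 0.05. MCL1, which opposes BAK1, rose as well, by 0.69 ± 0.04.

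Of 17 complement genes, 10 rose and 0 fell, with a median of 1.47. C4A was at 0 untreated and at 2.86, 9.99 and 9.29 CPM after IFNγ, at least 140.4-fold higher, though C4A and C4B are near-identical copies and their split is uncertain. SERPING1, the inhibitor of the first complement component, went from 0.149, 0.276 and 0.198 to 8.51, 7.02 and 5.92 CPM (log2 change 5.11 ± 0.24, adjusted p = 2.16e-07). C1S and C1R, the proteases it inhibits, rose by 2.81 ± 0.19 and 2.48 ± 0.14, and the alternative pathway gene CFB by 4.30 ± 0.92. The membrane regulators CD46, CD55 and CD59, which protect a cell from complement, did not pass. CD59 varied between replicates, with 240.3, 89.5 and 250.7 CPM untreated and 224, 223 and 222 CPM treated.

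Cytokine genes gave 8 raised and 3 lowered of 18 tested. CSF1, the macrophage growth factor, went from 27.2, 24.1 and 26.2 to 279.6, 252 and 271 CPM (log2 change 3.37 ± 0.08, adjusted p = 3.09e-11). IL15, a growth factor of natural killer and memory T cells, went from 0.53, 1.12 and 0.953 to 12.5, 11.8 and 11.2 CPM (log2 change 3.78 ± 0.20, adjusted p = 4.43e-08), and its presenting receptor IL15RA rose by 4.23 ± 0.36. IL18BP, the decoy for interleukin 18, went from 2.05, 3.501 and 3.38 to 35.8, 35.5 and 34.3 CPM (log2 change 3.57 ± 0.18, adjusted p = 3.14e-08). IL7 rose by 3.42 ± 0.23. LIF and TGFB2 were also called lowered, with -0.48 ± 0.06 and -0.38 ± 0.06. NF-κB genes moved little: 7 of 16 rose and 1 fell, none by 2-fold, with CYLD highest at 0.93 ± 0.04 and the subunit genes RELA and NFKB2 not passing (0.05 and -0.04).

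On the cell surface, 9 of 12 tested checkpoint and ligand genes rose, with a median of 0.76. CD274, which encodes PD-L1, stood at 6.78, 7.04 and 6.24 CPM without and 96.9, 91.6 and 97.02 CPM with IFNγ. PDCD1LG2, for PD-L2, stood at 2.02, 1.36 and 2.03 and 19.6, 19.5 and 20.9 CPM. Noncoding RNA of that locus overlaps both genes, and because no source used here says whether strand was used in counting, reads of it may be among their counts. TNFRSF14, which encodes HVEM, went from 1.54, 0.934 and 0.665 to 8.34, 7.09 and 6.83 CPM (log2 change 2.81 ± 0.35, adjusted p = 1.05e-04), and LGALS9, for galectin 9, rose by 1.85 ± 0.12. CD47, the signal that restrains phagocytosis, went from 45.4, 49.4 and 50.5 to 109, 108 and 110.4 CPM (log2 change 1.17 ± 0.05, adjusted p = 8.74e-09). Of 10 adhesion genes, ICAM1 and VCAM1 rose and CD44 and MCAM fell. VCAM1 went from 0.762, 1.04 and 0.953 to 15.1, 14.4 and 12.98 CPM (log2 change 3.95 ± 0.21, adjusted p = 4.67e-07) and ICAM1 from 0.0497, 0 and 0.198 to 1.33, 1.43 and 1.36 CPM (log2 change 3.99 ± 0.94, adjusted p = 0.0117). Without untreated shCTRL replicate 1 ICAM1 was not called (log2 change 3.69, adjusted p = 0.055).

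**Figure D3:**
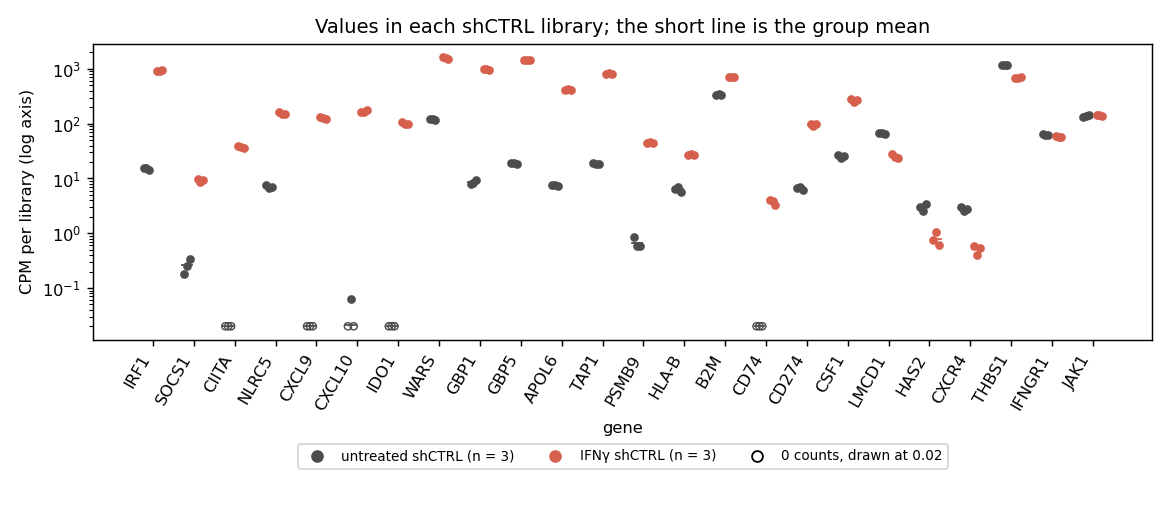
CPM (y axis, log scale) in each of the 3 untreated and 3 IFNγ shCTRL libraries for 24 genes (x axis); the short line is the group mean and open circles are 0 counts drawn at 0.02. CXCL9, CIITA, IDO1 and CD74 were at 0 in every untreated library, LMCD1, HAS2, CXCR4 and THBS1 were lower after IFNγ, and IFNGR1 and JAK1 stood at nearly the same level in both groups.

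Genes that fell did so by less. Falls were ranked by log2 change among called genes of at least 1 CPM in the higher group whose groups did not overlap. BOLA2 had the largest (-3.24 ± 1.01, adjusted p = 0.0479). Its untreated libraries stood far apart, at 36.02, 32.1 and 3.201 CPM, against 2.88, 2.101 and 2.58 CPM treated. That call was lost without untreated shCTRL replicate 1 or 2, any 1 IFNγ shCTRL library or any 1 IFNγ shINCA1 library (log2 change -3.36 to -2.82, adjusted p 0.0632 to 0.135), and BOLA2 has a near-identical copy with which it may share reads. The receptor gene CXCR4, next in that order, went from 3.05, 2.57 and 2.79 to 0.581, 0.408 and 0.548 CPM (log2 change -2.45 ± 0.28, adjusted p = 5.41e-05). HAS2, a hyaluronan synthase, went from 3.06, 2.55 and 3.399 to 0.747, 1.03 and 0.598 CPM (log2 change -1.91 ± 0.18, adjusted p = 1.15e-05). CEMIP, which depolymerises hyaluronan, went from 1.97, 2.48 and 2.52 to 0.768, 0.846 and 0.565 CPM (log2 change -1.67 ± 0.26, adjusted p = 6.74e-04). In CXCR4, HAS2 and CEMIP every treated library lay below every untreated one. The hyaluronan list as a whole moved both ways, with 3 raised and 3 lowered of 12. HAS3, another synthase, rose from 18.9, 18.99 and 19.5 to 47.96, 46.3 and 46.1 CPM (log2 change 1.29 ± 0.20, adjusted p = 5.59e-04), the link protein gene HAPLN3 rose from 1.66, 1.87 and 1.403 to 18.3, 20.05 and 18.6 CPM (log2 change 3.53 ± 0.14, adjusted p = 2.84e-09), and the hyaluronan receptor gene CD44 fell from 646, 664 and 659 to 568, 564 and 571 CPM (log2 change -0.21 ± 0.02, adjusted p = 2.89e-05). Others with large falls were FILIP1L (-1.83 ± 0.15), FLRT3 (-1.61 ± 0.11), the adhesion G protein-coupled receptor gene ADGRE2 (-1.58 ± 0.11), the Frizzled ligand gene NDP (-1.52 ± 0.14), the cannabinoid receptor gene CNR1 (-1.51 ± 0.18), the proapoptotic BMF (-1.48 ± 0.20) and LMCD1 (-1.38 ± 0.06). LMCD1 stood at 67.3, 66.3 and 66.3 CPM untreated and 28.02, 24.5 and 24.1 CPM treated, with no overlap of the groups.

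By change in CPM the largest fall was that of THBS1, the matrix glycoprotein thrombospondin 1, from 1201, 1175 and 1165 to 697, 697 and 699 CPM (log2 change -0.76 ± 0.02, adjusted p = 6.59e-11). ANKRD1, a muscle ankyrin repeat gene and YAP/TEAD target, went from 260.2, 258 and 244 to 143, 140.4 and 145 CPM (log2 change -0.83 ± 0.03, adjusted p = 1.71e-09). SEMA3C, a guidance cue, fell with -0.75 ± 0.17, SESN3 with -0.84 ± 0.05, the sodium pump gene ATP1B1 with -0.60 ± 0.03, the Notch ligand gene JAG1 with -0.44 ± 0.04 and the actin-associated PALLD with -0.45 ± 0.02. Of 24 YAP/TEAD targets 8 fell and 2 rose, with a median of -0.10. CTGF went from 81.1, 81.4 and 78.4 to 50.7, 52.3 and 52.7 CPM (log2 change -0.63 ± 0.04, adjusted p = 1.19e-07) and IGFBP3 from 48.4, 48.8 and 52.9 to 26.5, 22.2 and 21.2 CPM (log2 change -1.10 ± 0.30, adjusted p = 0.0259). The IGFBP3 call was lost without any 1 of the 3 untreated shCTRL libraries or IFNγ shCTRL replicate 2 or 3 (log2 change -1.14 to -1.04, adjusted p 0.0528 to 0.0921), and with limma-voom (adjusted p = 0.129). CYR61, the other common reporter of this pathway, was not called in shCTRL cells, except with upper-quartile factors (log2 change -0.11, adjusted p = 0.0389).

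Of 22 tested glial and stem cell genes 7 fell and 1 rose, with a median of -0.30. SOX4 went from 127, 124 and 129 to 73.4, 70.4 and 71.7 CPM (log2 change -0.82 ± 0.04, adjusted p = 1.60e-08), SOX9, a glial identity factor, from 198, 194 and 189 to 124, 120.3 and 112 CPM (log2 change -0.71 ± 0.04, adjusted p = 6.30e-08), and the Notch target HES1 had -0.28 ± 0.05. SOX2, the stem cell factor, moved the other way, with 112, 107 and 110.1 CPM untreated and 118, 129 and 125 CPM treated (log2 change 0.17 ± 0.04, adjusted p = 0.00733), and without IFNγ shCTRL replicate 2 it was not called (0.13, adjusted p = 0.0518). Of 21 receptor tyrosine kinase genes 5 fell, among them FGFR1 (-0.46 ± 0.04), FGFR2 (-0.58 ± 0.06), DDR1 (-0.41 ± 0.04) and ERBB3 (-0.78 ± 0.16), and 2 rose, with MET at 0.49 ± 0.03. EGFR did not pass (0.20 ± 0.07, adjusted p = 0.0533), but was called raised without IFNγ shCTRL replicate 1 or untreated shINCA1 replicate 2 (0.21 to 0.27, adjusted p 0.00206 to 0.0481), with DESeq2 (adjusted p = 0.0172) and with a filter of 5 CPM in 3 samples (adjusted p = 0.041). The integrin chains gave 2 raised and 1 lowered of 15: ITGA6 rose from 131, 143 and 139 to 284, 289 and 275 CPM (log2 change 1.04 ± 0.04, adjusted p = 2.01e-09) and ITGB8 fell from 76.1, 76.3 and 85.4 to 47.5, 46.2 and 46.8 CPM (log2 change -0.76 ± 0.05, adjusted p = 4.13e-07). The matrix gene TNC, a glioma-associated glycoprotein, rose by 0.45 ± 0.03 while collagens gave 2 raised and 2 lowered of 17. The counts of the integrin and collagen lists are near the shares of all tested genes, 9.72% raised and 7.51% lowered. The immediate early gene ATF3 rose from 3.69, 6.05 and 4.59 to 21.6, 22.3 and 23.8 CPM (log2 change 2.25 ± 0.13, adjusted p = 1.38e-07).

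Of 31 proliferation genes 1 rose, CCND1 (0.59 ± 0.03), and 2 were called lowered, the larger change being that of E2F2 (-0.32 ± 0.05), with a median of -0.02. Of 31 respiratory chain genes 2 rose and 0 fell, with a median of 0.02. Of 20 genes of the unfolded protein and heat shock responses 0 rose and 1 fell, DNAJB1 (-0.19 ± 0.03). The shares of these 3 lists are below the 9.72% and 7.51% of all tested genes. Cholesterol synthesis gave 1 raised and 4 lowered of 24, p53 targets 2 and 2 of 15, and glycolysis and hypoxia genes 4 and 6 of 27. In that last list the glucose transporter gene SLC2A3 rose from 19.04, 22.3 and 20.8 to 47.6, 47.9 and 45.9 CPM (log2 change 1.19 ± 0.09, adjusted p = 1.77e-06) while SLC2A1 fell (-0.21 ± 0.03).

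**Figure D4:**
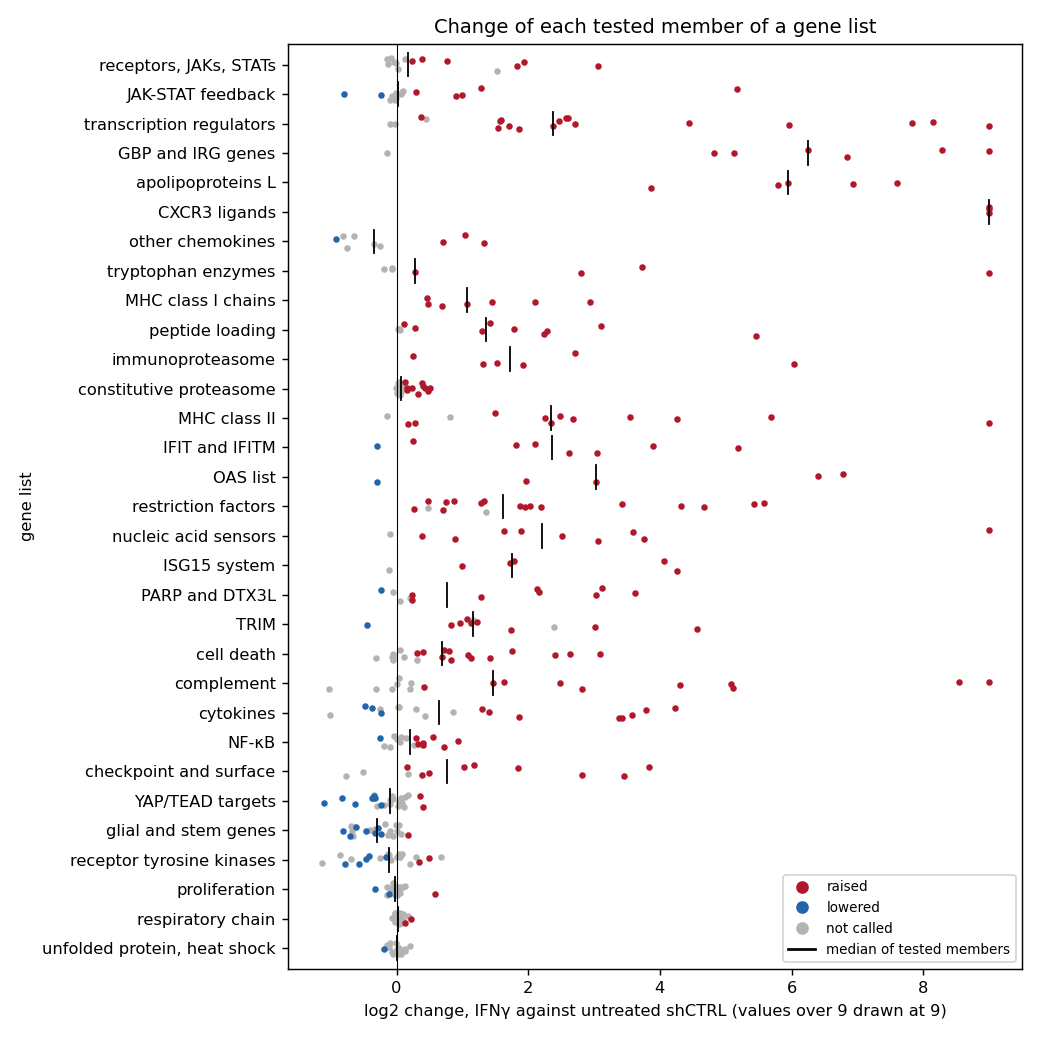
Log2 change (x axis, IFNγ against untreated shCTRL, values over 9 drawn at 9) of each tested member of 31 gene lists (y axis); red members were raised, blue lowered, grey did not pass the test, and black bars are medians. The medians run from 13.9 in the CXCR3 ligands (11.16 with genes from 0 set to their lower bound) to -0.35 in the other chemokines, and the constitutive proteasome, proliferation and respiratory chain lists lie close to 0.

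Many raised genes lay beside each other. Of 347 genes raised at least 2-fold with a place in the RefSeq order of tested genes, 101 (29.1%) had a direct neighbour that was also raised at least 2-fold, against 658 (4.27%) of all 15400 placed genes. Neighbours can be copies of one ancestral gene, overlap each other or share a promoter, and these cases were not separated here. There were 8 runs of 3 or more such genes, with 35 genes in all. The longest held 8 genes of chromosome 1: RBMXL1, GBP3, GBP1, GBP2, GBP4, GBP5, GBP6 and the pseudogene GBP1P1. RBMXL1 at its edge rose by 1.00 ± 0.07. A run of 6 on chromosome 6 held HLA-DOB, TAP2, PSMB8, PSMB8-AS1, TAP1 and PSMB9. On chromosome 4 CXCL9, ART3, CXCL10 and CXCL11 followed each other. ART3 overlaps the genes of both CXCL10 and CXCL11 on the other strand, as PSMB8-AS1 overlaps PSMB8 and TAP1, so the counts of ART3 (0 untreated, 0.975, 1.35 and 1.38 CPM treated) and PSMB8-AS1 may hold reads of those genes. The other runs were APOL3, APOL4, APOL2 and APOL1 on chromosome 22, IFIT2, IFIT3, IFIT1 and IFIT5 on chromosome 10, OAS1, OAS3 and OAS2 on chromosome 12, PARP9, DTX3L and PARP14 on chromosome 3, and CASP4, CASP1 and CARD16 on chromosome 11.

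**Figure D5:**
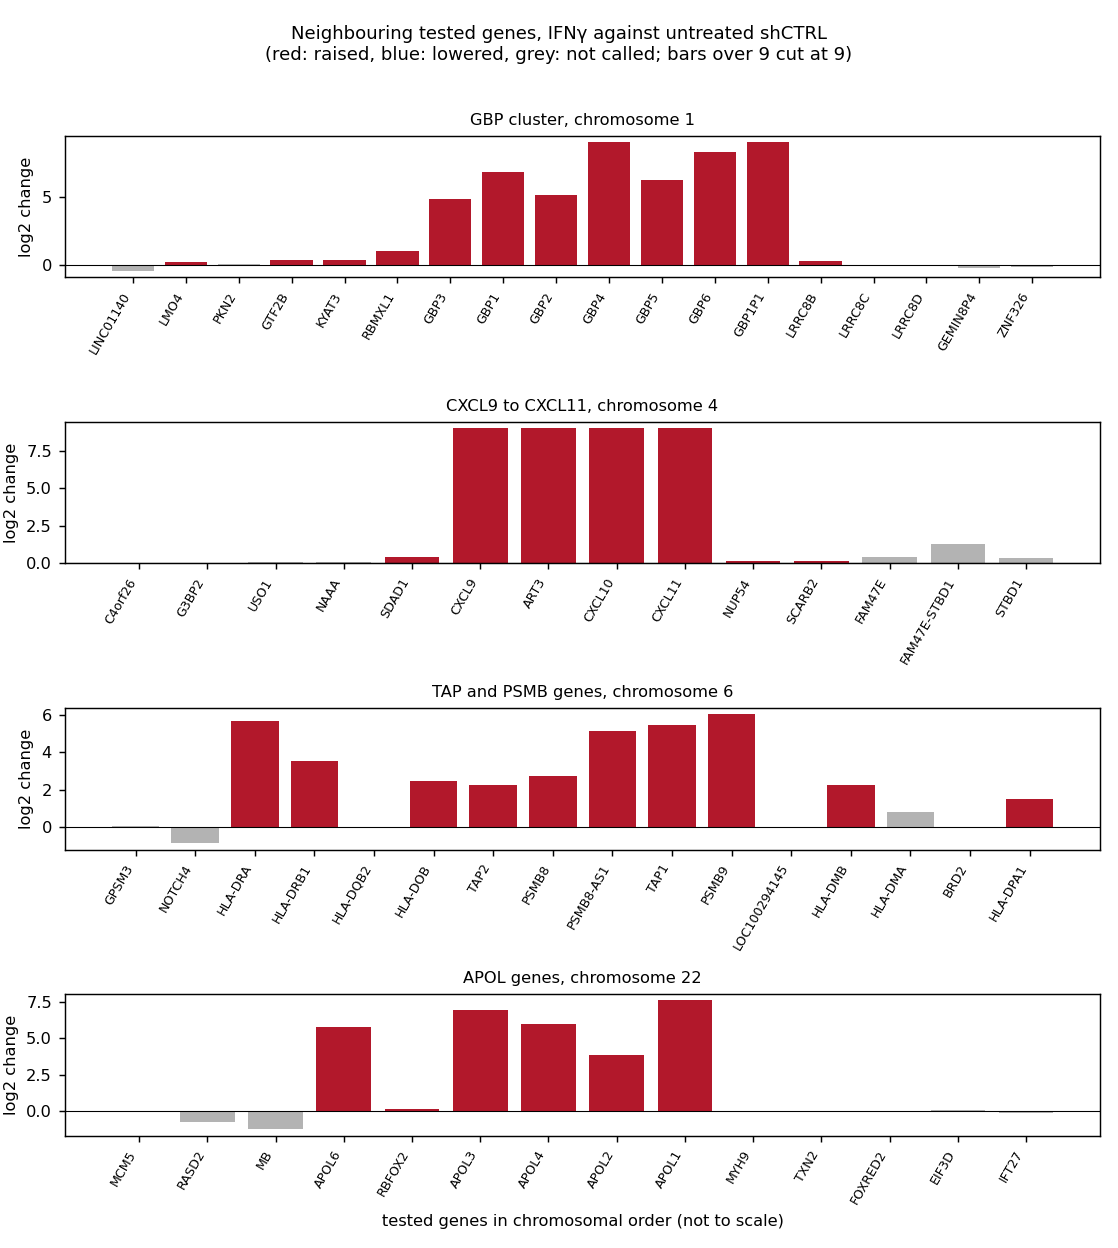
Log2 change (y axis, bars over 9 cut at 9) of neighbouring tested genes in chromosomal order (x axis, not to scale) around 4 of the runs; red bars were raised, grey bars did not pass the test. LRRC8C near the GBP genes, TXN2 near the APOL genes and BRD2 between class II genes of chromosome 6 had bars close to 0. Other flanking genes were called with small rises. Among them were KYAT3 (0.41), GTF2B (0.38) and LRRC8B (0.27) around the GBP genes. SDAD1 (0.40) and NUP54 (0.19) beside the CXCL run and RBFOX2 (0.17) beside APOL3 were called as well.

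Among 1072 tested genes that RefSeq lists as long noncoding, 16 were raised and 13 lowered at least 2-fold, against 321 and 60 of 13725 protein-coding ones. Noncoding genes and pseudogenes among the largest rises were mostly at 0 without IFNγ. GBP1P1 reached 10.7, 10.5 and 9.65 CPM, BANCR 3.38, 2.63 and 2.41 CPM, CEP170P1 1.43, 2.398 and 1.45 CPM and USP30-AS1 1.100, 0.846 and 1.495 CPM, each from 0. CEP170P1 had the opposite direction in shINCA1 cells, with 1.85, 1.36 and 2.02 CPM untreated and 0, 0 and 0.667 CPM treated. That fall did not pass the test (adjusted p = 0.113), and the cause of the opposite directions was not tested. GBP1P1 is a copy of GBP1 and USP30-AS1 lies within USP30 on the other strand, so reads of these genes may be counted there. Of noncoding genes that fell, LINC00312 went from 2.203, 2.72 and 1.67 to 0.768, 0.674 and 1.18 CPM (log2 change -1.32 ± 0.25, adjusted p = 0.00322) and LINC00639 from 5.14, 5.01 and 5.16 to 2.200, 2.23 and 1.76 CPM (log2 change -1.31 ± 0.10, adjusted p = 2.09e-06).

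The response of shCTRL cells was compared with that of shINCA1 cells by the interaction of treatment and line. Of all tested genes 173 (1.10%) had a larger log2 change and 97 (0.615%) a smaller one in shCTRL cells. A deeper fall in shCTRL cells counts as a smaller log2 change. Leaving out 1 library gave 95 to 154 and 57 to 92, the lowest without untreated shINCA1 replicate 3 and IFNγ shINCA1 replicate 3. Of the 679 distinct tested list genes, 50 and 24 did so, together 10.9%, against 1.71% of all tested genes. The lists are rich in strongly counted responders, so these shares are not compared by a test. TAP1 rose by 5.45 in shCTRL and 4.35 in shINCA1 cells, a difference of 1.11 ± 0.04 (adjusted p = 1.96e-07). WARS differed by 0.86 ± 0.03 (adjusted p = 1.38e-07), JAK2 by 1.04 ± 0.11 (5.27e-04) and SOCS1 by 2.05 ± 0.32 (0.00672), all with the larger rise in shCTRL cells. HAPLN3 was raised in shCTRL cells and not called in shINCA1 cells. Its log2 change was 3.53 there and -0.62 in shINCA1 cells, a difference of 4.15 ± 0.24 (adjusted p = 2.56e-06). APOL6 and NLRC5 had the smaller log2 change in shCTRL cells, by -2.28 ± 0.10 (2.08e-07) and -0.97 ± 0.12 (0.00144), while their levels were higher there in both conditions. In shINCA1 libraries APOL6 stood at 0.61, 0.865 and 0.816 CPM untreated and 211, 203 and 205 CPM treated, and NLRC5 at 3.05, 2.13 and 2.48 and 107, 110.1 and 108 CPM. ANKRD1 fell in shCTRL cells (-0.83) but not in shINCA1 cells (0.10), a difference of -0.93 ± 0.04 (adjusted p = 3.95e-07). GBP1 differed as well (adjusted p = 2.10e-06). Its untreated level was 0, 0 and 0.0445 CPM in shINCA1 libraries against 8.05, 8.296 and 9.496 CPM in shCTRL libraries, and its treated levels were 141, 143 and 149 and 997, 995 and 958 CPM. Since each hairpin is 1 line, a difference of hairpins and one of lines cannot be told apart.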

How the data were processed

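Messenger RNA of U251 cells was sequenced in 12 libraries, 3 for each combination of hairpin and treatment, after a stranded library preparation per the labels' protocols. The authors deposited 1 table of estimated counts per gene symbol for 27685 genes, and these expected counts were all whole numbers. The submitters' processing notes name FastQC, Trimmomatic, HISAT2, StringTie and the build hg19. No source used here gives the counting step, its strand setting or the annotation. Many low values are multiples of 3 (5790 values of 3 against 2186 of 2), so a low value is not a number of single reads, and intervals from such values would cover counting error only.

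The counts were fitted as deposited with edgeR 4.0.16 in R 4.3.3: filterByExpr over the 4 groups (15769 genes kept), TMM scaling, 1 model over all 12 libraries with a mean per group, quasi-likelihood tests and Benjamini-Hochberg adjustment at 0.05. The biological coefficient of variation was 10.6%. A fold against libraries at 0 is a lower bound from 3 counts in each library. The procedure was tested on simulated data for IFNγ in shCTRL cells, with 15412 genes run. It called 28, 48, 50 and 50 of 50 genes set to change by 0.5, 1, 2 and 4 on the log2 scale. It also called 13 unchanged genes. Every simulated gene had the same spread, and changes were set only in genes above a minimum count. Recovery of changes in genes with few counts or a wider spread was not measured. Alternatives were other size factors and filters, DESeq2 1.42.0, limma-voom (limma 3.58.1), a minimum fold, a stricter threshold, only the shCTRL libraries, a replicate block and leaving out each library.

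The comparison and the gene lists were chosen with earlier results of these data known. Genes named are members of lists of up to 20 genes, the 8 with the smallest p of longer lists, the 15 largest changes each way by log2 (at least 1 CPM in the higher group, groups not overlapping) and by CPM, noncoding genes among the 60 largest rises, and genes in runs of at least 3 neighbours. Y-linked genes were left out. Promoters and gene order come from RefSeq on GRCh38.p14, matched by symbol, and no coordinates were converted. Results for some genes that these rules take in are not reported here.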

Additional observations from a re-analysis of the deposited data

Results flagged for a closer look

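The log2 change with IFNγ differed between shCTRL and shINCA1 cells in MET and 62 other named genes. The interaction of treatment and line was tested with edgeR's quasi-likelihood test (adjusted p of at most 0.05 over all 15769 genes, 3 samples a group). Values below are log2 differences, the change in shCTRL minus that in shINCA1 cells. They are given without an explanation, and hairpin and line cannot be told apart.

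Log2 changes larger in shCTRL cells were found among antigen presentation genes, with 1.11 for TAP1, 0.50 for TAP2, 0.58 for LAP3, 1.14 for HLA-B, 0.57 for HLA-E, 0.40 for PSMB8, 0.24 for PSMA4 and 1.13 for IFI30. The signalling and regulator genes JAK2, SOCS1, BATF3, SP100 and SP110 differed by 1.04, 2.05, 0.88, 0.42 and 0.46. Among defence genes the differences were 0.95 for SAMHD1, 0.77 for TRIM21, 0.70 for APOL2, 0.68 for IFIT3, 0.46 for IFIT5, 0.60 for DDX58, 0.44 for IFIH1, 0.45 for TLR4 and 1.37 for C1R. Among cell death genes they were 0.87 for FAS, 0.45 for BAK1 and 0.44 for MLKL. The secreted and surface proteins' genes IL18BP, CX3CL1, CXCL16, CD47, ITGA6 and TNC differed by 1.25, 0.67, 0.42, 0.37, 0.48 and 0.21. WARS differed by 0.86, the glucose transporter gene SLC2A3 by 0.93 and the cyclin gene CCND1 by 0.34. The receptor tyrosine kinase gene MET differed by 0.22. HAPLN3, with 4.15, had the largest of these differences.

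Log2 changes that were positive but smaller in shCTRL cells were found for APOL6 (-2.28), PARP9 (-1.02), NLRC5 (-0.97), ERAP2 (-0.94), NNMT (-0.86), DTX3L (-0.79), IFIT1 (-0.69), GBP2 (-0.55) and IFI16 (-0.28). All 9 had a lower mean level in shINCA1 than in shCTRL cells without IFNγ and with it. PARP9 and DTX3L, neighbours whose products act as a pair, had untreated means of 21.8 and 28.8 CPM in shCTRL and 6.77 and 11 CPM in shINCA1 cells.

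Of the genes that fell in shCTRL cells, ADGRE2 differed by -1.72, FILIP1L by -1.47, HAS2 by -1.25, ANKRD1 by -0.93, LMCD1 by -0.69, MFSD2A by -0.56, SESN3 by -0.49, ITGB8 by -0.46, SOX4 by -0.42, ATP1B1 by -0.41, THBS1 by -0.38 and PALLD by -0.21. In each of these 12 genes the log2 change was lower in shCTRL than in shINCA1 cells. CYR61 differed by -0.38, with -0.06 in shCTRL and 0.32 in shINCA1 cells.

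The fitted difference is not given for 5 genes that had few or no counts in 1 of the groups, where it is no measure of size. The interaction passed with adjusted p-values of 2.10e-06 for GBP1, 0.0144 for OAS1, 0.0158 for BATF2, 0.0207 for CEP170P1 and 0.0416 for TRIM22.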

How the results depend on the processing

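No called change of a named gene turned its direction under an alternative that was run. MET was not among the genes followed here. Of the named genes' calls, 69 of 5285 comparisons with an alternative lost significance and 6 gained it. The 9 differences between hairpins that the comparison of responses describes kept their call in each of 171 such fits. Of 1606 counts of list members, 150 moved by over 1.5 times, mostly in lists with 1 to 3 members called. The cause was not tested for the following values. Upper-quartile factors gave 1970 lowered genes against 1184. Genes lowered at least 2-fold, 78 as reported, numbered 19 with a filter of 5 CPM in 3 samples, 50 with only the 6 shCTRL libraries, 37 at an adjusted p of 0.01 and 10 in a test against a minimum fold of 2 (glmTreat), where 223 were raised. Under the filter and the stricter threshold fewer genes can pass by construction. At an adjusted p of 0.01, 605 genes were lowered, and 71 had a larger and 42 a smaller log2 change in shCTRL than in shINCA1 cells. The last 2 counts were 317 and 192 with DESeq2, against 173 and 97. Leaving out 1 library gave 1171 to 1646 raised and 849 to 1341 lowered genes, and 326 to 357 and 61 to 94 at 2-fold. It gave 95 to 154 larger and 57 to 92 smaller log2 changes in shCTRL cells, where a deeper fall counts as smaller. The larger ones fell to 112, 115, 100, 95 and 100 without untreated shCTRL replicate 2, IFNγ shCTRL replicate 1 or 2, untreated shINCA1 replicate 3 and IFNγ shINCA1 replicate 2, and the smaller ones to 57 without IFNγ shINCA1 replicate 3.

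DESeq2 did not call ART3, C4B and CFB (adjusted p 0.0644 to 0.212), and limma-voom did not call BOLA2 and IGFBP3 (0.301 and 0.129). HLA-DPA1 was not called with RLE or upper-quartile factors or without a filter (0.0503 to 0.0589), BOLA2 not without a filter (0.0557), and STAT3 and IFITM10 not with only the 6 shCTRL libraries (0.0646 and 0.0688). IRGQ was called lowered with upper-quartile factors (0.0433). With only the 250 bases before the start, an ISRE match was found in 23.7% of promoters of genes raised 4 to 16-fold, 4.10% of those raised under 2-fold and 2.44% of all tested genes, and a GAS match in 5.49% of genes not called and 5.64% of all tested genes.

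Same-numbered untreated and IFNγ shCTRL libraries did not deviate together (r = 0.0147, -0.0358 and 0.0464 for numbers 1, 2 and 3). Whether same-numbered samples were cultured or handled together was not tested. A replicate block over all 12 libraries gave 1509 raised and 1125 lowered genes, and BOLA2, HLA-DPA1 and STAT3 were then not called (adjusted p 0.0698, 0.0886 and 0.0792). A block over the 6 shCTRL libraries gave 1219 raised and 650 lowered genes, with 27 lowered at least 2-fold. With that block BOLA2, CXCL8, ERBB3, HLA-DRB1, KMO, LINC00312, SEMA3C, SOX2 and STAT3 were not called (adjusted p 0.0561 to 0.131). Counts under about 1 CPM limit the precision of genes such as HLA-DOB or ICAM1.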

Other observations

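Outside the gene lists and the naming rule, further genes chosen after their values were seen rose among those at 5 CPM or more after IFNγ. UBD, which encodes the ubiquitin-like modifier FAT10, stood at 0, 0.127 and 0 CPM in the untreated and 7.45, 6.54 and 6.63 CPM in the treated shCTRL libraries. The butyrophilin genes BTN3A1, BTN3A2 and BTN3A3, whose products are read by gamma delta T cells, rose together by 2.67 ± 0.15, 2.26 ± 0.14 and 3.25 ± 0.11 on the log2 scale. SSTR2, a somatostatin receptor gene, stood at 0.182, 0.212 and 0.27 and 12.9, 11.9 and 12.2 CPM, CEACAM1 at 0.613, 0.191 and 0.504 and 20.4, 19.9 and 19.3 CPM, and NNMT, a nicotinamide methyltransferase gene of mesenchymal glioma cells, at 48.05, 48.9 and 50.8 and 169.9, 169 and 163 CPM. TLR4 rose by 1.21 ± 0.06. Among lowered genes, the neurokinin receptor gene TACR1 stood at 46.2, 43.8 and 44.1 and 22.1, 22.8 and 22.1 CPM, the lipid transporter gene MFSD2A at 62.5, 59.2 and 58.5 and 33.04, 30.2 and 30.1 CPM, and SOX5 and SOX21 fell beside SOX4 and SOX9, with log2 changes of -1.03 ± 0.14 and -0.91 ± 0.10.

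Some genes varied widely between replicates of 1 group. CD59 lay between 89.5 and 250.7 CPM in the untreated libraries, and JUND between 3.57 and 24.6 CPM in the treated ones.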
